A study of Sus scrofa with 10 samples.

Results

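The genes described here encode proteins of the cytosolic ribosome, followed through liver failure after hepatectomy in the pig (Sus scrofa). They are the rows of the deposited expression table whose symbol is an RPL or RPS symbol with a number (RPLP and RPSA included, ribosomal S6 kinases not), with the row of highest mean kept for each symbol. The rule found 49 of the 31905 genes in the table, each on a single row, 23 of the small and 26 of the large ribosomal subunit. Of these, 48 had 1 FPKM (a read density that corrects for gene length and library size) or more in 2 or more libraries and were tested; RPL10L was listed at 0 in all 10 libraries.

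RNA from whole liver was sequenced in 5 groups of wild-type pigs, without cell isolation named in the labels although they give the cell type as hepatocyte. Control was normal liver on day 0 (3 libraries). NoBAL was liver in failure after hepatectomy, with no support, on day 2 (2 libraries), and EmptyBAL was the same condition with a bioartificial liver that held no cells on day 3 (2 libraries). A bioartificial liver is an extracorporeal circuit in which blood passes over liver cells. The device held human induced hepatocytes, hepatocyte-like cells made by converting another human cell type, in hiHepD4 on day 4 (1 library) and hiHepD8 on day 8 (2 libraries). Day and treatment cannot be told apart in any comparison, and separate animals are not named for the libraries of a group, so the p-values reflect only how libraries scatter, which can be technical scatter.

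Ribosomal proteins assemble with ribosomal RNA into a small subunit, which decodes the mRNA, and a large subunit, which joins amino acids and passes the chain out through a tunnel. Their mRNAs are among the most abundant of a cell, are needed in matched amounts, and mostly start with a run of pyrimidines through which the kinase mTORC1 and the RNA-binding protein LARP1 set their translation. Liver that regrows after resection makes ribosomes before and during cell division. RNA levels, measured here, do not show how much of the mRNA was translated.

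The 13 mitochondrially encoded protein genes held 12.8% to 21.3% of the summed FPKM of a library, and 10366 to 10862 genes reached 1 FPKM. The table's sum was 791281 FPKM in NoBAL replicate 1 and 526565 in replicate 2, and lay between 439925 and 829970 over the libraries. The pairs of Control libraries and the hiHepD8 pair correlated at 0.992 to 0.994 across genes, against 0.956 for NoBAL and 0.893 for EmptyBAL. Each of the 8 hepatocyte markers was above 0 in every library, and their summed level was 81526 to 84148 FPKM in Control, whereas NoBAL had 15299 and 14601, EmptyBAL 3599 and 6800, hiHepD4 23654 and hiHepD8 21510 and 21432. The 8 macrophage markers, also above 0 in every library, summed to 1094 to 1200 FPKM in Control, against 455 and 213 for NoBAL, 835 and 1220 for EmptyBAL, 1073 for hiHepD4 and 853 and 864 for hiHepD8. A sum is weighted to the most abundant markers. The median log2 change of the 8 from Control was -1.19 in NoBAL, 1.32 in EmptyBAL and -0.40 in hiHepD8. The 4 cholangiocyte markers found of 5 had sums of 12.1 to 13.1 FPKM in Control, against 28.7 and 17.7 for NoBAL, 97.1 and 120 for EmptyBAL, 16.3 for hiHepD4 and 27.6 and 29.0 for hiHepD8. In such bulk samples, fewer cells of a type and less RNA per cell cannot be told apart.

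The 49 genes together held 3.17% to 3.20% of the summed FPKM in the Control libraries. NoBAL replicates 1 and 2 had a share of 8.15% and 6.85%, EmptyBAL 9.62% and 9.39%, hiHepD4 3.51% and hiHepD8 5.11% and 5.39%. The 4 libraries of liver failure without cells in a device thus lay above all others. As a sum of FPKM, the 49 genes reached 26152 to 26565 in Control, whereas NoBAL had 64473 and 36090, EmptyBAL 47764 and 41288, hiHepD4 28589 and hiHepD8 28884 and 29490. On this second scale hiHepD8 was close to hiHepD4, while on the first it lay above it, since the table's sum fell from 813633 FPKM in hiHepD4 to 564816 and 547312 in hiHepD8.

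Levels differed widely between the genes within a library. Leaving out the paralogs RPL3L, RPL10L and RPS27L, the other 46 genes ran in Control from RPS3A, with 118, 120 and 123 FPKM, to RPL10, with 1486, 1567 and 1436 FPKM. RPLP2 was next at the top, with 1477, 1464 and 1453 FPKM in Control, and was the highest of the 46 in each library of the other groups. FPKM are scaled to gene length, and the relation of level to length was not tested. Ribosomal protein genes have many near-identical processed copies in mammalian genomes, and the labels do not say how reads were shared among copies. The order of the 46 genes was largely kept: the rank correlation of each library's levels with the Control mean, over 46 genes and with no p since the genes share libraries, was 0.887 and 0.873 for the NoBAL libraries, 0.817 and 0.915 for EmptyBAL, 0.930 for hiHepD4, and 0.937 and 0.924 for hiHepD8.

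**Figure D1:**
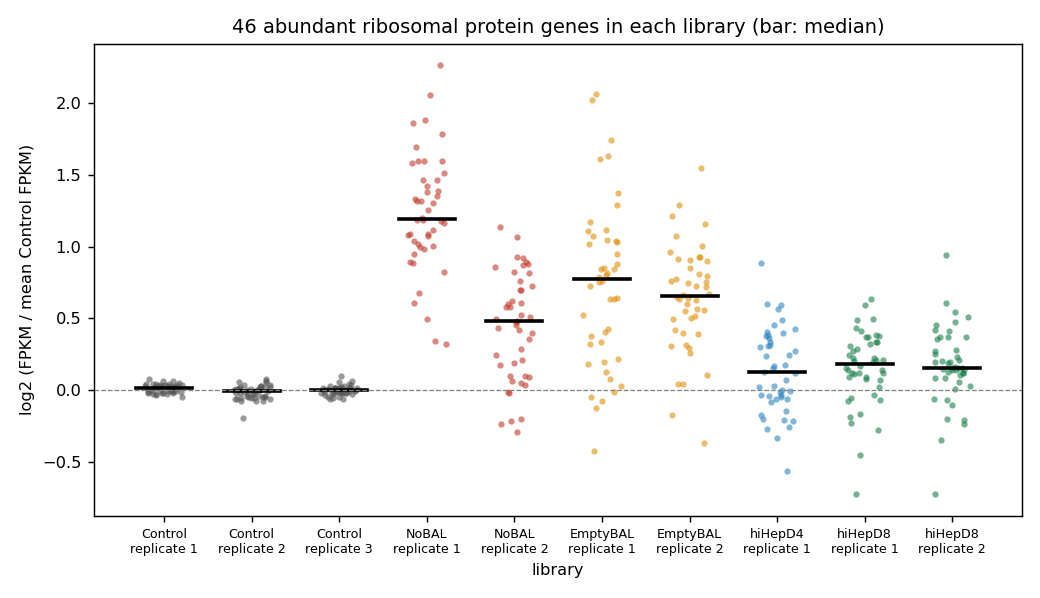
Each point is 1 of the 46 abundant genes in 1 library, as log2 of its FPKM over its mean in Control (vertical axis), with the libraries on the horizontal axis and the median as a bar. The median gene of the NoBAL libraries stood at 2.29 and 1.39 times the Control mean, that of EmptyBAL at 1.71 and 1.58 times, of hiHepD4 at 1.09 times and of hiHepD8 at 1.13 and 1.11 times.

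NoBAL was set against Control to find what accompanies liver failure. Ribosomal protein genes of both subunits rose: 27 of the 48 tested genes were higher and 1, RPL3L, was lower, by limma's moderated test at a Benjamini-Hochberg adjusted p under 0.05 over all 12180 genes tested. That is 56.2% of the genes higher, where 25.2% of all genes tested were called higher, and 2.08% lower, where 24.2% were. The median log2 change, on the log2(FPKM + 1) scale used throughout, was 0.84 over the 48 genes and 0.04 over all genes. The 27 were 13 of 23 small subunit and 14 of 25 large subunit genes. All 27 had NoBAL libraries above every Control library; over all 48 genes 41 did so, against 38.2% of all genes.

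The rise rested unevenly on the 2 libraries. NoBAL replicate 1 had 46 of 46 abundant genes above every Control library and 35 at 2 times the Control mean or more. In replicate 2, 40 were above every Control library, 5 were below, and 2 reached 2 times the Control mean. The share of all genes above every Control library was not computed for single libraries. The median log2 ratio of all tested genes to Control was 0.03 in replicate 1 and 0.02 in replicate 2. The median gene of the 46 was at 2.29 times the Control mean in replicate 1 and 1.39 times in replicate 2. A fit with 1 library left in a group assumes that this library varies like the other groups. Without Control replicate 1, 2 or 3 the counts of called genes were 13, 13 and 12 (38%, 38.5% and 38.3% of all genes). When the 3 Control libraries were averaged to 1, and likewise hiHepD8, limma called 0 of the 48 and 3.44% of all genes, with 1 of the 48 at an unadjusted p under 0.05.

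Among the small subunit genes, RPS18, whose protein sits in the head of the subunit at the bridge to the large one, had the largest rise of the 48. It was at 713, 714 and 742 FPKM in Control, whereas NoBAL had 3466 and 1589, EmptyBAL 2936 and 1766, hiHepD4 1338 and hiHepD8 1017 and 1029. Every failing or treated liver was above every Control library, and NoBAL replicate 1 was 2.18 times replicate 2 (log2 change NoBAL against Control 1.70 ± 0.38 SE, adjusted p = 0.0076). RPS18 (ENSSSCG00000001502) lies on chromosome 7 at 29638856 to 29642912 of Sscrofa11.1.

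RPSA, the laminin receptor precursor that binds at the mRNA exit site, was the small subunit gene with the closest NoBAL libraries among those raised. Its level was 623, 594 and 620 FPKM in Control, whereas NoBAL had 1386 and 1282, EmptyBAL 1105 and 957, hiHepD4 907 and hiHepD8 591 and 588. The NoBAL libraries were the highest of all and the hiHepD8 libraries were just under Control (NoBAL against Control 1.12 ± 0.21 SE, adjusted p = 0.0033). RPS6, the substrate of the S6 kinases downstream of mTORC1, was at 158, 161 and 157 FPKM in Control and 426 and 294 in NoBAL (1.15 ± 0.37 SE, adjusted p = 0.034). In EmptyBAL RPS6 was at 410 FPKM in replicate 1 but 164 in replicate 2, which is just above Control. RPS9 (1.25 ± 0.36 SE) and RPS12 (1.11 ± 0.25 SE) rose as well, with adjusted p = 0.022 and 0.0078. Others called higher were RPS3A, RPS4X, RPS13, RPS15A, RPS20, RPS23 and RPS27L.

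Around the mRNA entry and decoding site, 5 of 7 listed genes were found. RPS20 and RPS23, the latter next to the decoding centre, rose (0.91 ± 0.28 and 0.88 ± 0.26 SE), and RPS3, which lines the entry channel, and RPS15 were not called (adjusted p = 0.15 and 0.16). RPS2, the fifth, was found through its identifier alone and is outside the rule. RPS3 showed the replicate split of this group: 463, 482 and 464 FPKM in Control, but 1079 and 534 in NoBAL and 1145 and 629 in EmptyBAL.

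Of the large subunit genes called, RPL27, RPL3 and RPL4 had the largest rises. RPL3, which reaches into the peptidyl transferase centre, was at 567, 535 and 559 FPKM in Control, whereas NoBAL had 1790 and 1054, EmptyBAL 1250 and 1037, hiHepD4 731 and hiHepD8 697 and 710. All 4 libraries of NoBAL and EmptyBAL were above 1000 FPKM and every other library was below (NoBAL against Control 1.31 ± 0.28 SE, adjusted p = 0.0059). RPL4, a wall protein of the exit tunnel, was at 445, 433 and 446 FPKM in Control, whereas NoBAL had 1522 and 781, EmptyBAL 1367 and 829, hiHepD4 666 and hiHepD8 532 and 533. Its groups followed the same order, with replicate 1 the higher in both failing groups (1.30 ± 0.34 SE, adjusted p = 0.015). For RPL27 the log2 change was 1.34 ± 0.31 SE and for RPL8 1.18 ± 0.30 SE, with adjusted p = 0.0091 and 0.013. The remaining called genes of this subunit were RPL6, RPL7, RPL10A, RPL11, RPL15, RPL24, RPL28, RPL29, RPL32 and RPLP0.

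RPL5 and RPL11 form a particle with 5S ribosomal RNA and, when free, bind the ubiquitin ligase MDM2. RPL11 was at 636, 650 and 631 FPKM in Control and 1759 and 1159 in NoBAL (1.16 ± 0.29 SE, adjusted p = 0.013). RPL5 was at 319, 316 and 317 FPKM in Control and 396 and 375 in NoBAL, a log2 difference of 0.28 ± 0.19 SE that was not called (adjusted p = 0.25). Over all 10 libraries RPL5 varied least of the 46 abundant genes, by 1.68 times from its lowest to its highest library, where the median gene varied by 2.49 times and RPS18 by 4.86 times. The difference between RPL5 and RPL11 was not itself tested.

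The stalk that recruits elongation factors is built of RPLP0, RPLP1 and RPLP2. RPLP0 was at 1113, 1040 and 1095 FPKM in Control, whereas NoBAL had 2009 and 1753, EmptyBAL 1028 and 1551, hiHepD4 945 and hiHepD8 1152 and 1199, and it rose in NoBAL (0.79 ± 0.26 SE, adjusted p = 0.036). RPLP2 was at 6090 and 2187 FPKM in NoBAL and 6111 and 2788 in EmptyBAL, its replicate 1 in both groups far above replicate 2. For NoBAL against Control the log2 difference was 1.32 ± 0.49 SE and missed the threshold (adjusted p = 0.057), with the largest SE of the 48 genes.

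RPL10, which completes the large subunit late in its maturation, had the highest mean in Control of the 46 abundant genes. Its level was 2275 and 1224 FPKM in NoBAL and 1115 and 1539 in EmptyBAL, so that both groups overlapped Control (NoBAL against Control 0.16 ± 0.32 SE, adjusted p = 0.70, and -0.29 without NoBAL replicate 1). RPS28 (0.07 ± 0.25 SE) and RPS29 (0.22 ± 0.28 SE) were not called either. Other genes below the threshold in NoBAL were RPL22, RPL23, RPL26, RPL34, RPL35, RPL37, RPL38, RPS16, RPS21 and RPS25, each with a positive difference, the smallest 0.40 (RPS21). The identifier listed as RPL22 is assigned in the reference table to ICMT, a gene on the same chromosome, so the RPL22 value is uncertain.

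**Figure D2:**
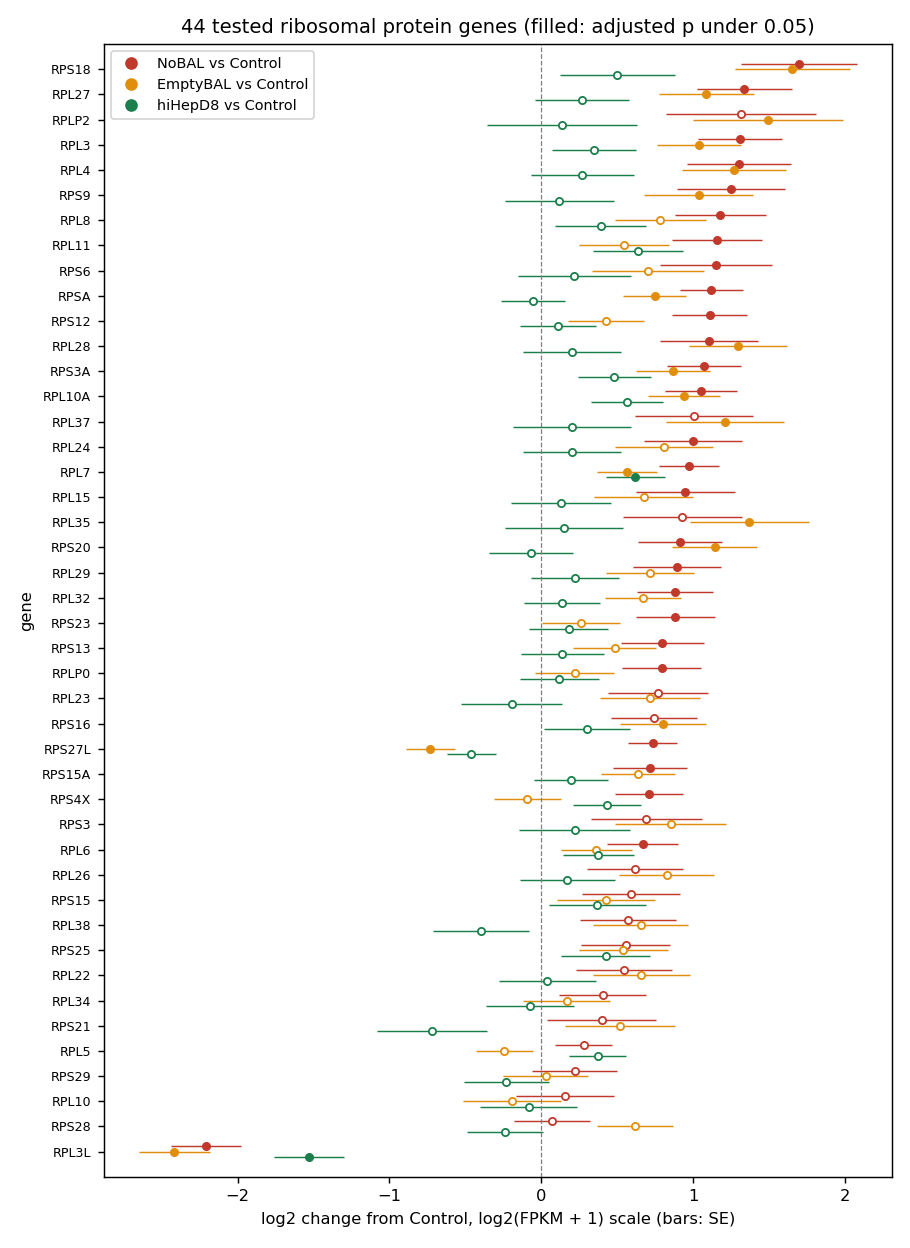
Tested genes, 44 of the 48 (vertical axis), with their log2 change from Control on the log2(FPKM + 1) scale (horizontal axis) in NoBAL, EmptyBAL and hiHepD8; bars are limma's SE and filled points have an adjusted p under 0.05. RPS18 is at the top and RPL3L, at -2.21, -2.42 and -1.53, at the bottom, and the 3 comparisons share the Control libraries.

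Several ribosomal protein genes serve as reference genes in quantitative PCR. Of 6 such genes, 4 were found under their symbols, and RPLP0, RPL4, RPS18 and RPL32 were all higher in NoBAL than in Control. These 4 are among the 48, of which 56.2% were called higher, against 25.2% of all genes. RPL32 was at 235, 230 and 228 FPKM in Control and 550 and 331 in NoBAL (0.88 ± 0.25 SE, adjusted p = 0.021). RPS18 and RPL4 were also called in EmptyBAL, where 31.2% of the 48 and 24.4% of all genes were higher. In hiHepD8 against Control none of the 4 was called, where 2.08% of the 48 and 15.1% of all genes were higher.

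EmptyBAL was compared with Control to see the same failure with blood passing through a device without cells. Here 15 of the 48 genes were higher and 2 were lower, which is 31.2% higher against 24.4% of all genes and 4.17% lower against 29.3%. Both EmptyBAL libraries were above every Control library for 41 genes, against 34.2% of all genes. The median log2 change was 0.66, and -0.03 over all genes. RPS18 again had the largest rise (1.65 ± 0.38 SE, adjusted p = 0.0078), followed by RPLP2 (1.49 ± 0.49 SE), RPL35 at the rim of the exit tunnel (1.37 ± 0.39 SE), RPL28 (1.30 ± 0.32 SE) and RPL4 (1.27 ± 0.34 SE), with adjusted p = 0.011 to 0.034. The other genes higher in EmptyBAL were RPL37, RPS20, RPL27, RPS9, RPL3, RPL10A, RPS3A, RPS16, RPSA and RPL7. RPL3L and RPS27L were lower.

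RPL28, raised in both failing groups, was at 178, 147 and 180 FPKM in Control, whereas NoBAL had 510 and 256, EmptyBAL 348 and 491, hiHepD4 255 and hiHepD8 209 and 179. All libraries of the failing groups were above Control, and hiHepD8 overlapped it. The count of 17 calls changed to 8, 7 and 8 without Control replicates 1, 2 and 3 (42.5%, 43.1% and 43% of all genes). With Control and hiHepD8 averaged to 1 library each it was 1, RPL3L (adjusted p = 0.045), and scaling to an equal upper quartile raised it to 38 (36 higher).

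The EmptyBAL libraries disagreed on single genes more than on the group as a whole. Across the 46 abundant genes the median ratio of replicate 1 to replicate 2 was 1.09, with 27 genes higher in replicate 1 and 19 in replicate 2, whereas in NoBAL the median ratio was 1.79, with 45 higher in replicate 1. RPL15 was at 286 and 558 FPKM in EmptyBAL replicates 1 and 2, the widest gap in favour of replicate 2. RPS6, with 410 and 164 FPKM, had the widest in favour of replicate 1. In NoBAL, RPS4X was the exception among the 46, with 780 FPKM in replicate 1 and 1045 in replicate 2. In 7 genes replicate 1 was over 1.5 times replicate 2 in both groups.

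**Figure D3:**
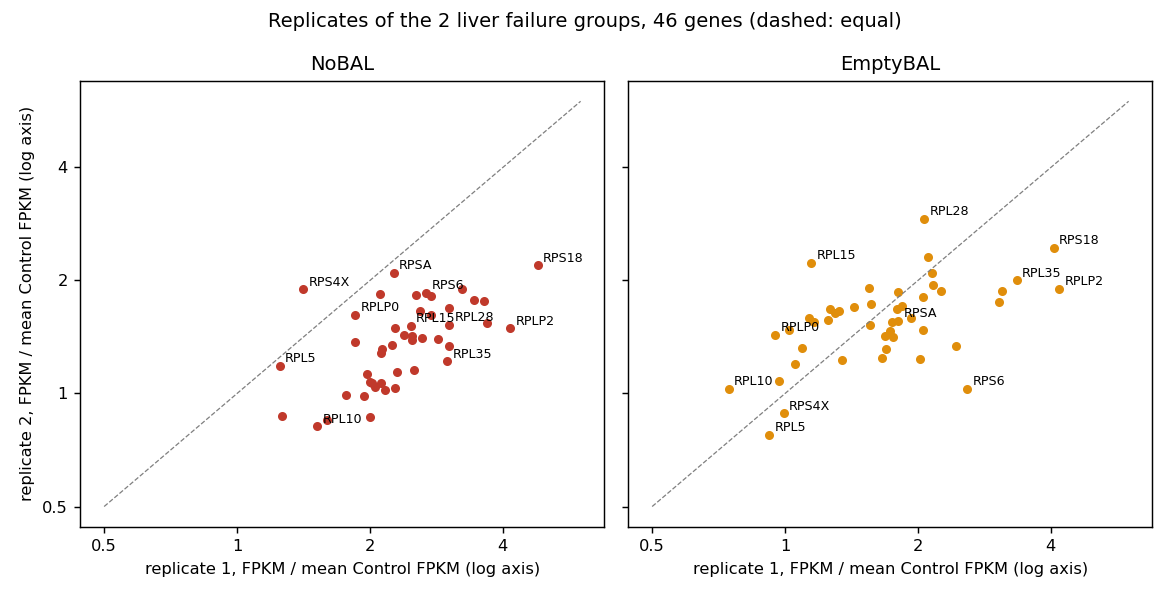
FPKM over the Control mean of the 46 abundant genes in replicate 1 (horizontal) against replicate 2 (vertical) of NoBAL and EmptyBAL, on log axes, with some genes labelled and equality dashed. In NoBAL all genes but RPS4X lie on the side of replicate 1, and in EmptyBAL the genes lie on both sides, RPS6 and RPLP2 far to the right and RPL15 above.

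EmptyBAL was also compared with NoBAL directly. Of the 48 genes, 2 were lower and 0 higher by limma (4 had an unadjusted p under 0.05), which is 4.17% lower against 21.4% of all genes and 0% higher against 12.6%. Both were genes of the small subunit. RPS27L, a paralog of RPS27, was at 51.5 and 43.5 FPKM in NoBAL and 14.7 and 18.4 in EmptyBAL (-1.47 ± 0.18 SE, adjusted p = 0.0025). RPS4X, carried on the X chromosome at 58149302 to 58155179, was at 548 and 490 FPKM in EmptyBAL (-0.80 ± 0.24 SE, adjusted p = 0.039). The direction of the group's median difference, -0.19, depended on scaling (0.083 with an equal upper quartile) and on NoBAL replicate 1 (0.27 without it). The count of called genes rose without any one library of either group, but such a fit leaves 1 library in a group. Over the alternative settings the log2 difference of RPS27L ran from -1.62 to -1.02 and that of RPS4X from -1.01 to -0.33.

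The device with cells was followed on days 4 and 8. The single hiHepD4 library had 3 of the 46 abundant genes at 1.5 times the Control mean or more, 0 at 2 times, and a range from 0.677 times (RPS28) to 1.85 times (RPS18). Of the 46, 25 were above every Control library and 12 below. The share of all genes outside the Control libraries was not computed for this library, so these counts do not set the 46 genes apart. The median log2 ratio of all tested genes to Control was 0.03 in it. With 1 library there is no replicate error, so these values carry no test.

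In each hiHepD8 library 2 of the 46 genes were at 1.5 times the Control mean or more, and RPS21 was lowest at 0.605 and 0.606 times. Against Control, RPL7 was higher and RPL3L lower among the 48 genes, which is 2.08% in each direction against 15.1% of all genes called higher and 17.1% called lower. The hiHepD8 libraries lay above every Control library for 35 genes and below for 10, against 38.7% and 41.3% of all genes. RPL7 was at 223, 213 and 219 FPKM in Control and 339 and 333 in hiHepD8 (0.62 ± 0.20 SE, adjusted p = 0.045). For RPSA the interval of the log2 difference was -0.54 to 0.43 (95%), and for RPLP0 -0.49 to 0.72, and differences within these intervals could not be seen. The shared spread of the fit is set largely by NoBAL and EmptyBAL: fitted on the Control and hiHepD8 libraries alone, 41 genes were called, 33 higher and 8 lower, where 68.8% of all genes were. Scaling also shifted the split, from 1 higher and 1 lower to 4 and 1 with an equal upper quartile and 30 and 1 with equal sums over the table, and RPL7 was no longer called without any one library of either group.

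RPL11 stood out between the otherwise matching hiHepD8 libraries. It was at 805 FPKM in replicate 1 and 1227 in replicate 2, the sole gene of 46 to differ by over 1.5 times, where the median ratio of the libraries was 0.998. Its log2 difference from Control, 0.64 with a 95% interval of -0.05 to 1.32, was not called.

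hiHepD8 was compared with NoBAL for what differed after treatment. Of the 48 genes 10 were lower and 0 higher (19 had an unadjusted p under 0.05 by limma), which is 20.8% lower, near the 24.8% of all genes, and 0% higher against 22.5%. The median log2 difference was -0.67, and -0.03 over all genes, with 46 of the 48 genes on the lower side and 37 without overlap, against 41.0% of all genes. RPS18 (-1.20 ± 0.42 SE), RPS27L (-1.20 ± 0.18 SE), RPSA (-1.18 ± 0.23 SE), RPS9 (-1.13 ± 0.39 SE) and RPS21 (-1.12 ± 0.40 SE) had the largest differences among the genes called, with adjusted p = 0.0013 to 0.049. The other called genes were RPL27, RPS12, RPS20, RPL38 and RPL3 (-1.07 to -0.96, adjusted p = 0.0186 to 0.0498). Of the 10, 7 were among the 23 small subunit genes tested and 3 among the 25 large subunit genes, a difference that was not tested. With an equal upper quartile the count was 4, of which 1 was higher, where 47.5% of all genes were called. The count rose without NoBAL replicate 2 and fell without NoBAL replicate 1 or either hiHepD8 library, fits that leave 1 library in a group. Over the alternative settings the log2 difference of RPS18 ran from -1.76 to -0.63 and that of RPSA from -1.23 to -0.89.

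Against EmptyBAL, hiHepD8 had 6 genes lower and 2 higher, which is 12.5% lower against 17.6% of all genes and 4.17% higher against 22.6%. The median log2 difference was -0.50 over the 48 genes and 0.05 over all genes, and 35 genes were lower without overlap, against 32.8% of all genes. RPS21, whose protein lies near the mRNA exit side, was at 833, 888 and 805 FPKM in Control, whereas NoBAL had 1688 and 727, EmptyBAL 1392 and 1047, hiHepD4 669 and both hiHepD8 libraries 510. Its day 8 level was thus below every other library (hiHepD8 against EmptyBAL -1.24 ± 0.40 SE, adjusted p = 0.039). RPS20 (-1.21 ± 0.31 SE), RPL28 (-1.09 ± 0.35 SE), RPL38 (-1.05 ± 0.34 SE), RPS28 (-0.86 ± 0.27 SE) and RPSA (-0.80 ± 0.23 SE) were lower as well, with adjusted p = 0.016 to 0.043. RPL5 (0.61 ± 0.21 SE, adjusted p = 0.046) and RPL3L (0.89 ± 0.25 SE, adjusted p = 0.026) were higher. The count of called genes fell without either hiHepD8 library and rose without EmptyBAL replicate 2, fits that leave 1 library in a group. Over the alternative settings the log2 difference of RPS21 ran from -1.49 to -1.04 and that of RPSA from -1.05 to -0.70.

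Among the 49 were 2 paralogs of low level. RPL3L, a paralog of RPL3 known from heart and skeletal muscle, was at 9.49, 11.6 and 10.2 FPKM in Control, whereas NoBAL had 2.24 and 0.886, EmptyBAL 1.34 and 0.959, hiHepD4 0.832 and hiHepD8 3.04 and 2.87. Every library outside Control was below every Control library, and hiHepD8 lay between Control and the failing groups. It was lower in NoBAL (-2.21 ± 0.23 SE, adjusted p = 0.00022), EmptyBAL (-2.42 ± 0.23 SE, adjusted p = 0.00013) and hiHepD8 (-1.53 ± 0.23 SE, adjusted p = 0.0021). At these low levels the added 1 FPKM understates the change. As a share of the RPL3 and RPL3L levels together, RPL3L made up 1.65% to 2.13% in Control, whereas NoBAL had 0.125% and 0.0840%, EmptyBAL 0.107% and 0.0924%, hiHepD4 0.114% and hiHepD8 0.435% and 0.402%. Of 4 muscle genes, the 2 found summed to at most 0.123 FPKM in any library. RPL3L (ENSSSCG00000032657) lies on chromosome 3 at 40004907 to 40016702 and RPL3 (ENSSSCG00000040494) on chromosome 5 at 8922697 to 8929768.

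RPS27L was at 27.9, 28.2 and 27.8 FPKM in Control and 36.0 in hiHepD4, and at 19.7 and 20.5 in hiHepD8. It was higher in NoBAL (0.74 ± 0.16 SE, adjusted p = 0.007) and lower in EmptyBAL (-0.73 ± 0.16 SE, adjusted p = 0.0067), so that the 2 failing groups lay on opposite sides of Control without overlap. The EmptyBAL direction turned with equal sums over the table (0.059, adjusted p = 0.82), a scaling under which the median of all genes was 0.61. Of 8 genes of ribosomal stress and quality control, 3 were higher and 0 lower in NoBAL than in Control, where 25.2% of all genes were higher. In EmptyBAL 0 were higher and 3 lower than in Control, where 29.3% of all genes were lower. In hiHepD8 against NoBAL 5 were lower and 0 higher, where 24.8% of all genes were lower. ZNF598 and PELO, which act on stalled ribosomes, were higher in NoBAL, and MDM2 was not called by limma (0.22, adjusted p = 0.56).

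**Figure D4:**
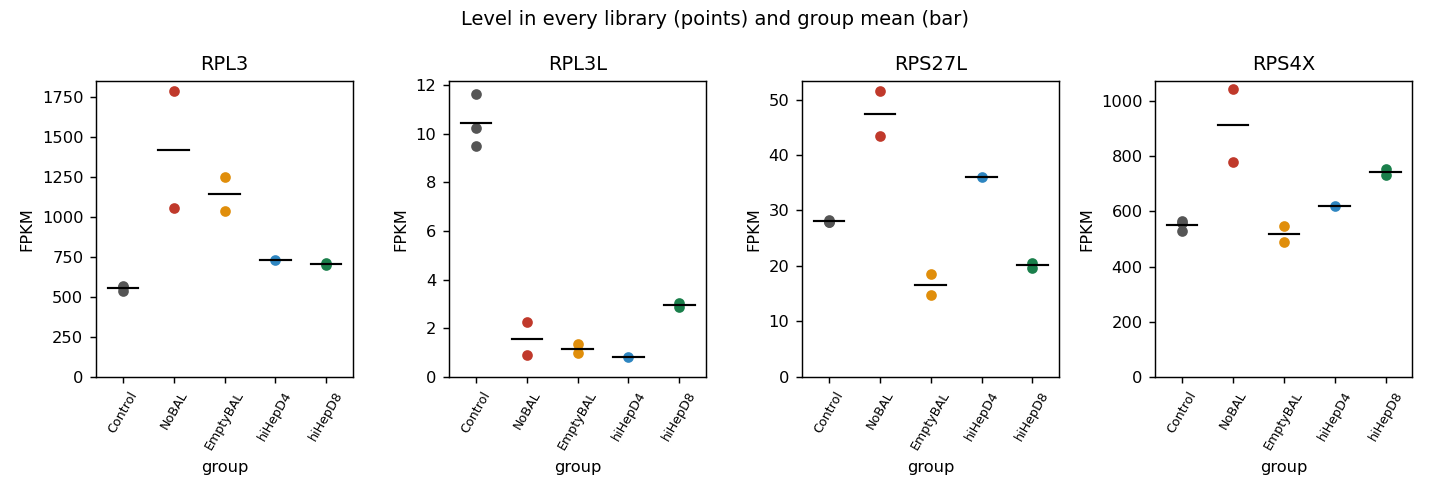
FPKM of RPL3, RPL3L, RPS27L and RPS4X in every library (points) by group, with the group mean as a bar and axes from 0. RPL3 is highest in NoBAL and EmptyBAL where RPL3L is near 1 to 2 FPKM, RPS27L is above Control in NoBAL and below it in EmptyBAL and hiHepD8, and RPS4X is highest in NoBAL.

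Paralogs and companions outside the rule were read from the same fit. RPL22L1 was at 7.99, 8.05 and 9.09 FPKM in Control, whereas NoBAL had 73.7 and 35.1, EmptyBAL 59.9 and 36.8, hiHepD4 60.7 and hiHepD8 15.4 and 18.3 (NoBAL against Control log2 2.47, adjusted p = 0.00066). RPL7L1, a nucleolar paralog, was at 15.1, 16.2 and 13.7 FPKM in Control, 80.6 and 82.0 in NoBAL, but 21.0 and 36.2 in EmptyBAL. Both stood above Control by more than any of the 46 abundant genes did in NoBAL on the log2 scale, and hiHepD4 was above hiHepD8 for both. RPL26L1 was also higher in NoBAL and RPL36AL was not called. RACK1, a signalling scaffold on the small subunit, was at 489, 475 and 487 FPKM in Control and 846 and 778 in NoBAL (0.74, adjusted p = 0.056).

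Other mRNAs that start with a pyrimidine tract were read beside these genes. Of 18 found and tested, 6 were higher and 2 lower in NoBAL than in Control, against 25.2% of all genes higher and 24.2% lower, with a median log2 change of 0.28. In EmptyBAL against Control 5 were higher and 3 lower, where 24.4% and 29.3% of all genes were. In hiHepD8 against Control 8 were higher and 0 lower, where 15.1% and 17.1% of all genes were, with a median of 0.59. Of the 48 ribosomal protein genes, 2.08% were higher in that comparison. NPM1, a nucleolar chaperone, rose (2.35), as did NAP1L1 and IPO5 (1.19 for IPO5), while TPT1, the translationally controlled tumour protein gene, fell from 3258 to 3354 FPKM in Control to 1027 and 1102 in NoBAL. Of 7 elongation genes 2 were higher and 1 lower in NoBAL, a share of higher genes near that of all genes. EEF1B2, EEF1D, EEF1G and EEF2 are also among the 18, so the lists overlap. EEF1G rose (1.05) and EEF2K, the kinase that inactivates elongation factor 2, fell (-0.86), while EEF2, at 262 and 673 FPKM in NoBAL, was not called.

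Chaperones, importers and assembly factors that serve ribosomal proteins were higher for 8 of 13 genes and lower for 0 in NoBAL, where 25.2% of all genes were higher. In hiHepD8 against NoBAL they were lower for 8 and higher for 0, where 24.8% of all genes were lower. EmptyBAL, without cells in the device, also had 6 lower and 0 higher than NoBAL, where 21.4% of all genes were lower. Against Control, EmptyBAL had 2 of the 13 higher and 1 lower, where 24.4% and 29.3% of all genes were. NVL (1.47), BYSL (1.12), GRWD1, the chaperone of RPL3 (1.11), and the kinase RIOK1 (1.09) changed most in NoBAL. Of 26 regulators 7 were higher and 5 lower, shares near the 25.2% and 24.2% of all genes. RPS6KA1, a ribosomal S6 kinase of the RSK family, rose (1.92), and DEPTOR, an inhibitor of mTOR, fell (-1.75). MYC, a transcription factor that drives ribosome production, was at 391, 391 and 395 FPKM in Control, whereas NoBAL had 94.3 and 118, EmptyBAL 30.2 and 52.9, hiHepD4 126 and hiHepD8 56.5 and 56.6, lowest in EmptyBAL. MYC fell in NoBAL (-1.88, adjusted p = 0.00068), as did LARP1 (-0.72, adjusted p = 0.0041), whereas EIF4EBP1, a translation repressor inactivated by mTORC1, rose (1.73).

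Marker levels also differed between the groups. The 5 proliferation markers found of 6 summed to 4.66 to 5.11 FPKM in Control, whereas NoBAL had 94.2 and 119, EmptyBAL 34.8 and 54.9, hiHepD4 45.5 and hiHepD8 2.79 and 2.47, with CDK1 at 0 in 1 Control library. The 4 neutrophil markers found of 6 summed to 1.52 to 2.99 FPKM in Control, whereas replicates 1 and 2 of NoBAL had 235 and 28.6, those of EmptyBAL 641 and 108, hiHepD4 67.0 and hiHepD8 2.68 and 3.01. In both failing groups it was replicate 1 that had the higher neutrophil sum. S100A8 was at 0 in all Control libraries and S100A12 in 2 of them. The 7 stellate cell and fibroblast markers summed to 319 to 353 FPKM in Control, whereas NoBAL had 906 and 623, EmptyBAL 787 and 560, hiHepD4 151 and hiHepD8 595 and 599, none at 0. Their part in the ribosomal protein levels, and that of the hepatocyte, macrophage and cholangiocyte markers, was not tested.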

How the data were processed

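The authors deposited FPKM per gene and library, without counts. The submitters' processing notes list HISAT2, Cufflinks and HTSeq, and as builds both Sscrofa11.1 and mm10, with no role for any; strand use in counting is not given. Low values did not give whole reads (47 of 950 genes under 0.1 FPKM shared a ratio between Control libraries, within 0.2%), so the depth is unknown and no counting intervals are given. Libraries were grouped by title. log2(FPKM + 1) of the 12180 genes that reached 1 FPKM in 2 or more libraries was fitted in limma 3.58.1 (R 4.3.3; mean-variance trend, two-sided), with 5 group means over 10 libraries, leaving 5 residual degrees of freedom. The script was tested on simulated data. In each comparison members called without overlap between groups were named, up to 10 per direction, beside a fixed set that included stalk, 5S particle and reference genes; for the companion lists, values go to at most 4 genes past the threshold, taken by size of change. Other genes given with values, such as LARP1 and EEF2, were chosen after their values were seen. The members and lists were chosen with earlier results of these data known. Coordinates came by symbol from a RefSeq table of Sscrofa11.1, for 49 of 49 genes. Alternatives were other scalings, pseudocount, filter, variance model, sets of libraries and a replicate block. A few genes are counted but not reported by name here.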

Additional observations from a re-analysis of the deposited data

How the results depend on the processing

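The number of the 48 genes called depended on how the libraries were scaled and on how the spread was estimated. Counts run in the order NoBAL against Control, EmptyBAL against Control, hiHepD8 against Control, hiHepD8 against NoBAL, hiHepD8 against EmptyBAL and EmptyBAL against NoBAL, and were 28, 17, 2, 10, 8 and 2 as reported. The shares of all genes called were then 49.4%, 53.7%, 32.2%, 47.3%, 40.2% and 34%. Without the filter the counts were 16, 13, 3, 3, 3 and 1 (27.9%, 32.6%, 20.3%, 27.6%, 23.5% and 16.3% of all genes). With an equal upper quartile they were 27, 38, 5, 4, 11 and 2 (47.9%, 55.5%, 34.2%, 47.5%, 41.5% and 28.8%). Equal sums apart from mitochondrial and the 50 top genes gave 40, 41, 15, 6, 17 and 2 (45.9%, 54.7%, 37.8%, 45.2%, 39.1% and 25.7%). With only the 2 groups compared the counts were 29, 29, 41, 3, 3 and 0 (57.1%, 49.9%, 68.8%, 46.4%, 19.3% and 0%). Without the mean-variance trend they were 31, 25, 2, 17, 12 and 4 (49.1%, 53.4%, 32%, 47.1%, 40.1% and 33.5%). With Control and hiHepD8 averaged to 1 library each they were 0, 1, 0, 0, 0 and 0. A pseudocount of 0.1 changed no count. Chosen after seeing the data, equal sums over the whole table gave 46, 45, 31, 13, 29 and 2. Of all genes, 44.9%, 60.2%, 37.7%, 40.7%, 37% and 25.1% were then called. This scaling moved the median log2 change of all genes to 0.30 in NoBAL and 0.61 in EmptyBAL against Control. The averaged libraries with equal sums gave fewer calls in every comparison than reported, with 1 library each for Control and hiHepD8. The higher and lower split was 14 and 1 for hiHepD8 against Control and 1 and 5 for hiHepD8 against NoBAL with equal sums apart from top genes, 2 and 15 and then 1 and 28 for hiHepD8 against EmptyBAL with both kinds of equal sums, and 1 and 1 for EmptyBAL against NoBAL under all 3 scalings.

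Leaving out each library in turn gave 12 to 45, 7 to 19, 1 to 1, 2 to 38, 0 to 14 and 4 to 15 genes. The median of EmptyBAL against NoBAL became 0.083 with an equal upper quartile and 0.075 with equal sums apart from top genes. With equal sums, alone or with averaged libraries, this median was 0.27. It was 0.27 without NoBAL replicate 1 and -0.59 without NoBAL replicate 2. RPS27L in EmptyBAL against Control became 0.059 with equal sums, alone or with averaged libraries, and RPL10 in NoBAL against Control was -0.29 without NoBAL replicate 1 and 0.61 without replicate 2. The causes were not tested.

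Whether replicate numbers pair the samples could not be decided, since the deviations from the mean of 2 libraries mirror each other. Correlations of these deviations across genes for same-numbered pairs were -0.09 to 0.01 with Control and 0.137 for NoBAL with EmptyBAL. For hiHepD8, numbered by its column names, they were 0.0092 with NoBAL and 0.033 with EmptyBAL. Across the 46 abundant genes, the log2 replicate ratios of NoBAL and EmptyBAL correlated at 0.288. A replicate block over the 7 libraries of Control, NoBAL and EmptyBAL left 1 gene in NoBAL against Control, 1 in EmptyBAL against Control (both lower) and 0 in EmptyBAL against NoBAL (1 at an unadjusted p under 0.05 by limma), against 16, 11 and 1 without the block in those libraries. Of all genes, 24.7%, 30.7% and 3.34% were called with this block and 42.3%, 47.2% and 22.6% without it. A replicate block over these and the hiHepD8 libraries, added after seeing the data, left 1, 2 and 0 genes in hiHepD8 against Control, NoBAL and EmptyBAL (10 at an unadjusted p under 0.05 for the last), against 2, 10 and 8 without it. The shares of all genes called were 19.2%, 39.3% and 31.1% with that block and 32.2%, 47.3% and 40.2% without it. Depth is unknown, so it is not known how much counting error adds.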

Other observations

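The reference table gives ribosomal protein names for 9 further genes whose rows in the deposited table carry no such symbol (RPLP1, RPL14, RPS7, RPS2, RPS27A, RPL23A, RPL7A, RPL36A and RPS24). By limma at an adjusted p under 0.05, 4 of the 9 were higher and 0 lower in NoBAL than in Control (RPL14, RPS27A, RPL23A and RPL36A), where 25.2% of all genes were higher. RPL36A was at 240, 221 and 216 FPKM in Control, whereas NoBAL had 886 and 494, EmptyBAL 1074 and 618 and hiHepD8 252 and 255 (NoBAL against Control log2 1.55 ± 0.33 SE, adjusted p = 0.0058). In EmptyBAL 3 of the 9 were higher than in Control (RPL14, RPL7A and RPL36A), where 24.4% of all genes were, and in hiHepD8 against NoBAL 3 were lower (RPS2, RPL23A and RPL36A), where 24.8% of all genes were. RPLP1, the third stalk gene, was at 2081 to 2083 FPKM in Control and 3077 and 1917 in NoBAL, and was not called (0.22 ± 0.30 SE, adjusted p = 0.56).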
